A study of Mus musculus with 8 samples.

Results

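Mitochondrial ribosomal protein genes were taken as all protein-coding rows of the count table whose mouse symbol begins with Mrpl or Mrps followed by a digit. This rule gave 78 of the 47937 genes in the table. By the current uniform nomenclature of ribosomal proteins, 51 of them encode proteins of the large subunit and 26 encode proteins of the small subunit. The remaining gene, Mrps36, carries the family name, but its product is a subunit of the 2-oxoglutarate dehydrogenase complex. Mrps30 and Mrps18a are named after the small subunit and are counted here with the large subunit, where their products (mL65 and mL66) are found.

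The mitochondrial ribosome translates the few mRNAs of the mitochondrial genome, all of which encode subunits of the oxidative phosphorylation complexes. Its rRNAs are transcribed inside the organelle, whereas its proteins are encoded in the nucleus, made in the cytosol and imported. Its proteins fall into those with bacterial relatives and those found only in mitochondria. In T cells, mitochondrial translation is known to be needed for activation and expansion.

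RNA was sequenced from mature CD8 single-positive thymocytes that were TCRβ+ and high in MHC class I, with 1 sorted sample per mouse. The 4 Ndrg3ctrl mice were Ndrg3 +/fl;Lck-cre+ and the 4 Ndrg3TKO mice were Ndrg3 fl/fl;Lck-cre+, all 6 to 7 weeks old. Both groups carried the Lck-cre transgene, whose proximal Lck promoter acts early in T cell development, and the control mice carried 1 floxed allele. The floxed allele loses 1 exon after Cre recombination, so transcripts of the deleted gene can still be counted, and the controls are heterozygous rather than wild type.

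Total counts per library ranged from 21126698 (Ndrg3ctrl replicate 2) to 32668081. Ndrg3 itself was measured at 79.3, 81.5, 81.2 and 80.9 CPM (read counts scaled to a library of 1000000 reads by the TMM method) in the control libraries and at 50.4, 48.4, 53.1 and 55.3 CPM in the Ndrg3TKO libraries, with no overlap (log2 difference -0.64 ± 0.0526 SE, adjusted p = 1.04e-05, edgeR). The 7 CD8 T cell markers summed to between 5798.4 and 6614.9 CPM in every library. Of the CD4 T cell markers, Cd4 stayed at or under 1.48 CPM and Zbtb7b at or under 0.402 CPM, while Foxp3 ranged from 2.6 to 6.55 CPM. Of the NK cell markers, Ncr1 and Klra8 had no count in any library. The remaining marker, Klrb1c, ranged from 0.11 to 0.639 CPM in Ndrg3ctrl and from 1.48 to 2.04 CPM in Ndrg3TKO. The double-positive thymocyte markers summed to 37.6 to 46.7 CPM in Ndrg3ctrl and 45.0 to 52.4 CPM in Ndrg3TKO. For gamma delta T cell markers the sums were 12.5 to 16.4 and 14.7 to 22.5 CPM, and in both lists the groups overlapped. The part of these differences in the values below was not tested. Y-linked genes were expressed in Ndrg3ctrl replicate 2, Ndrg3TKO replicate 2 and Ndrg3TKO replicate 3 and were near 0 in the other 5 libraries.

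Many nuclear genes for mitochondrial proteins carry binding motifs for NRF1, for ETS factors such as GABP and for YY1 close to their starts. The RefSeq promoter table (250 bases before to 50 bases after each start) had an entry for 69 of the 78 genes. The motif CCGGAAG (ETS) was present on either strand in 25 of these 69 promoters (36.2%), compared with 9.12% of all 27025 promoters and 19.6% of the 9499 promoters of tested genes. GCGCATGCG (NRF1) was present in 7 promoters (10.1%; 1.81% of all promoters and 4.01% of those of tested genes), and AAGATGGCG (YY1) in 8 (11.6%; 1.49% and 3.47%). No motif contains another. At least 1 of the 3 motifs was found in 35 of the 69 promoters. A match describes letters only, and no binding was measured.

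Of the promoters, 4 are shown 5′ to 3′ with motif matches in capitals. Mrps18c and Mrpl52 were chosen because they had the lowest log2 differences of the small and the large subunit. Mrps18b is shown because it holds an NRF1 and an ETS match, and Mrps27 because it holds an ETS and a YY1 match and lies head to head with another gene of mitochondrial RNA biology, Ptcd2.
Mrps18c promoter, GRCm38.p6, chr5:100798509-100798808, plus strand: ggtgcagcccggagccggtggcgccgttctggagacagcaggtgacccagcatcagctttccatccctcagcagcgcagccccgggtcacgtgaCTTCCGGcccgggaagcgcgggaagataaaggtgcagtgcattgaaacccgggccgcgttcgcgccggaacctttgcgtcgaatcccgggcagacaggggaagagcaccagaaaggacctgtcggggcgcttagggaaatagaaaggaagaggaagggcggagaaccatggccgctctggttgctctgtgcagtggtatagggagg
Mrpl52 promoter, GRCm38.p6, chr14:54426659-54426958, plus strand: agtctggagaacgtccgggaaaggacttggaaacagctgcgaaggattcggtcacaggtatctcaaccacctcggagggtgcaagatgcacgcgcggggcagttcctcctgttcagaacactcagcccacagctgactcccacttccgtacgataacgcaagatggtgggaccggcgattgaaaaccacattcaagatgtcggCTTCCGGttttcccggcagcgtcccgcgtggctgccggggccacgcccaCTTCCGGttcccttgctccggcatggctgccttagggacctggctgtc
Mrps18b promoter, GRCm38.p6, chr17:35916391-35916690, minus strand: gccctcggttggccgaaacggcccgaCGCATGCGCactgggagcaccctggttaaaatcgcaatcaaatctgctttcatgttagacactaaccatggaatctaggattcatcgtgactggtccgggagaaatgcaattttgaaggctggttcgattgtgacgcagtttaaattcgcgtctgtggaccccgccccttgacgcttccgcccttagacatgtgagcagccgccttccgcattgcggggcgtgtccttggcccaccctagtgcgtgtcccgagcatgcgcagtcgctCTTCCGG
Mrps27 promoter, GRCm38.p6, chr13:99344536-99344835, plus strand: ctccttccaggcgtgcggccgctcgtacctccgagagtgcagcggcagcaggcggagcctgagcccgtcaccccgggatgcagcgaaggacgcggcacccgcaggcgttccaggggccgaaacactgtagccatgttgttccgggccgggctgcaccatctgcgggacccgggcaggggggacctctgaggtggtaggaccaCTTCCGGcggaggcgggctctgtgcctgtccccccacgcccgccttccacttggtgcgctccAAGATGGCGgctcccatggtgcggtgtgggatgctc
In all 4 promoters the run CTTCCGG is the ETS motif read on the opposite strand, as CGCATGCGC in Mrps18b is for NRF1, and Mrpl52 holds it at 2 places, on either side of its start.

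The mitochondrial ribosomal protein genes were expressed at a moderate level. The 77 genes that passed the filter on low counts had mean levels between 5.95 and 67.8 CPM, with a median of 21.6 CPM. Together, the 78 genes took between 0.175% and 0.196% of all counts in a library. Their mRNAs are short, with a median length of 1339 bases for the longest protein-coding transcript against 3096 bases over all tested protein-coding genes. Per kilobase of that transcript the members had a median of 13.9 CPM, and the tested protein-coding genes had a median of 11.7 CPM. The large-subunit genes had a median of 14 CPM per kilobase and the small-subunit genes a median of 12.4.

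Per kilobase, the highest level was that of Mrpl33 (bL33m), at 113 CPM. It was followed by Mrpl24 (uL24m, 50.7 CPM per kilobase), Mrpl52 (mL52, 46.6), Mrpl54 (mL54, 35) and Mrpl37 (mL37, 34.2). The lowest tested levels per kilobase were 3.81 for Mrps25 (mS25), 3.99 for Mrpl32 (bL32m) and 4.00 for Mrpl48 (mL48). This order depends on the length used. With the summed exonic length in place of the longest coding transcript, 2 of the 5 highest genes were shared (Mrpl24 and Mrpl54), and Mrpl33, whose exons sum to 7326 bases but whose longest coding transcript has 478, left the list. The Mrps25 count is also uncertain, since 69.8% of its exonic bases overlap Nr2c2 on the opposite strand and the strand setting of the counting is not given in the sources used here.

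**Figure D1:**
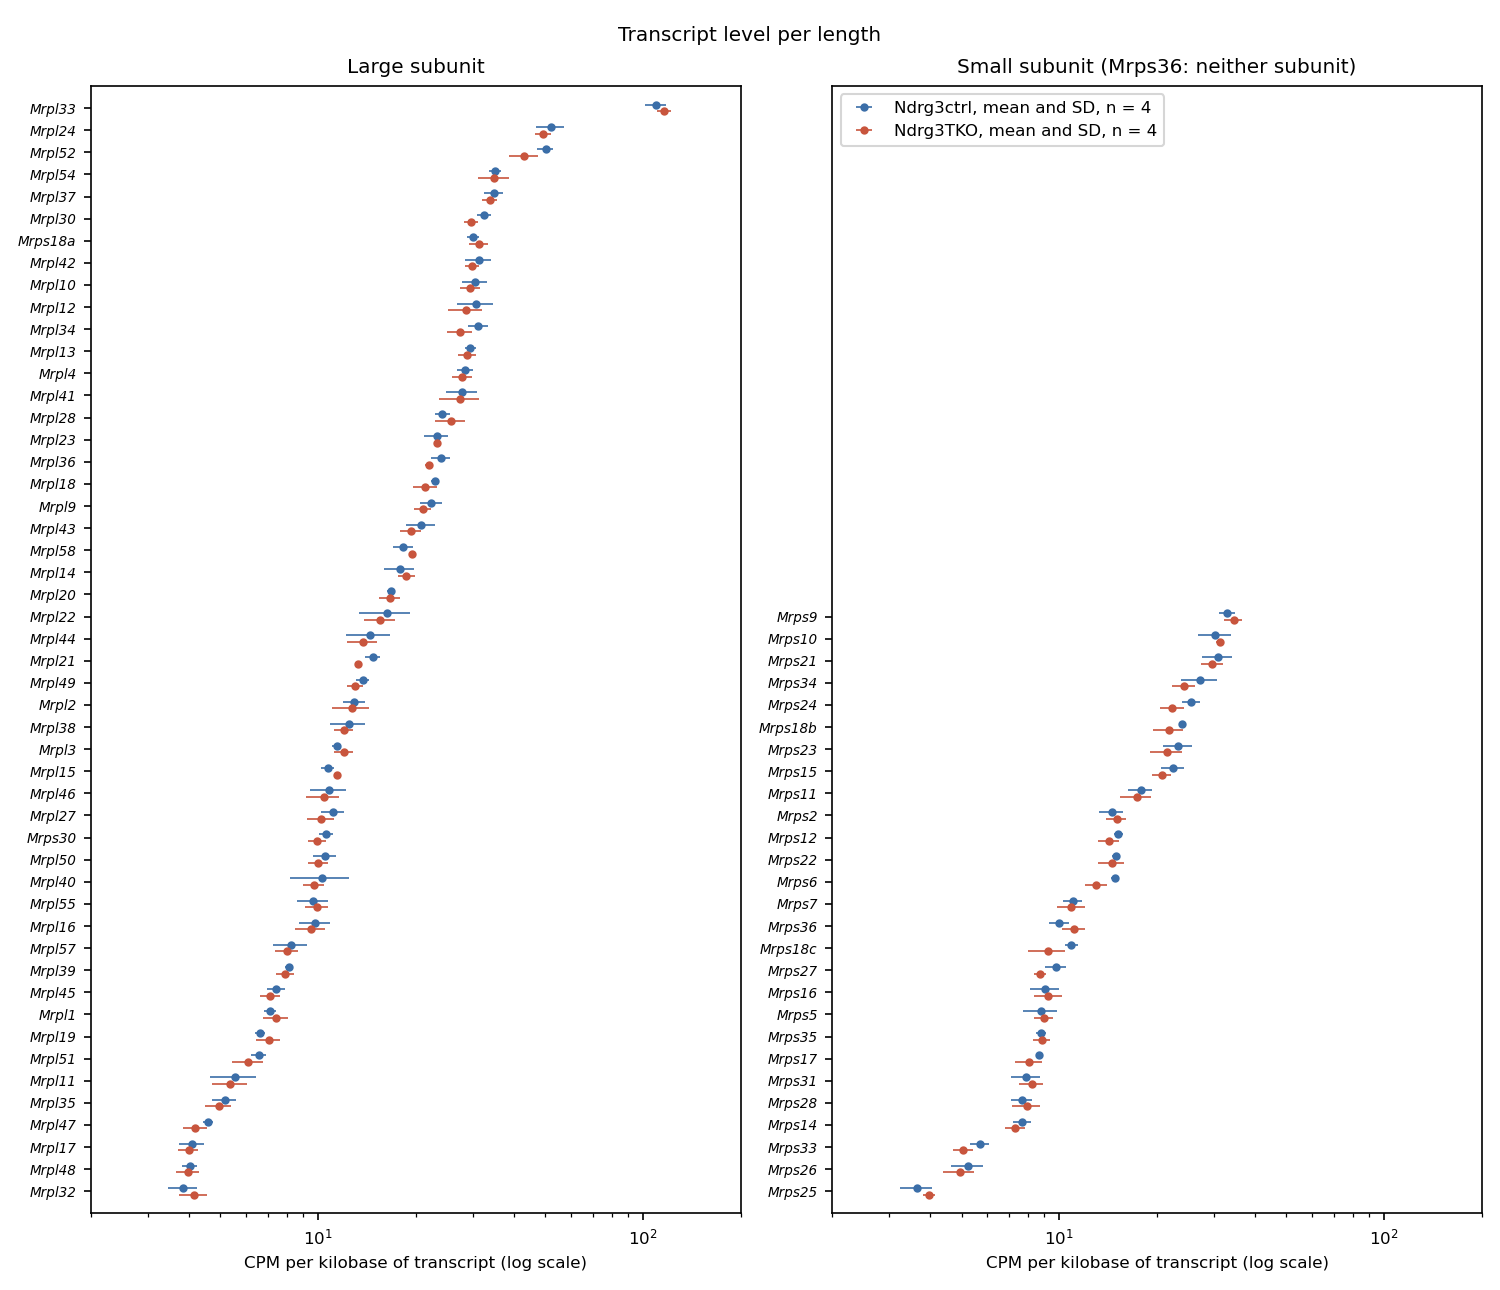
Mean CPM per kilobase of the longest coding transcript (log axis) for the 77 tested genes, by subunit, in Ndrg3ctrl (blue) and Ndrg3TKO (red), with SD over 4 libraries. Group means spanned 3.64 (Mrps25, Ndrg3ctrl) to 116.3 CPM per kilobase (Mrpl33, Ndrg3TKO), and the means of the groups lay close together beside this range.

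Mrpl53 (mL53) was the only member with no count in any of the 8 libraries. In these libraries 3 counts, the limit that a count of 0 allows, are worth 0.0918 to 0.142 CPM, and this limit covers counting error only. Of its exonic bases, 88.0% are shared with Gm42688, another gene annotated on the same strand, so the 0 cannot be read as a lack of the transcript. The 5 processed pseudogenes that also carry the family names were left out by the rule. Their counts reached at most 12 reads in a library (Mrpl23-ps1).

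No mitochondrial ribosomal protein gene passed the test between Ndrg3TKO and Ndrg3ctrl cells. Of the 77 tested genes, 0 were called at an adjusted p under 0.05 (edgeR), while 1.15% of all 14633 tested genes were called. The lowest adjusted p among the members was 0.331. DESeq2 also called 0 of the 77. At an unadjusted p under 0.05, edgeR gave 4 members with the lower mean in Ndrg3TKO (background 5.51% of tested genes in that direction) and 0 with the higher mean (background 5.34%), and DESeq2 gave 4 in all. The 95% interval of the log2 difference held 0 for 73 genes. For all 77 genes it lay within 0.5 of 0 on the log2 scale, which is a 1.41-fold difference, and for 39 genes within 0.25, a 1.19-fold difference. The widest excursions of the intervals were -0.49 (Mrps18c) and 0.38 (Mrps36). In bulk samples such as these, fewer cells of a type and less RNA per cell cannot be told apart.

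**Figure D2:**
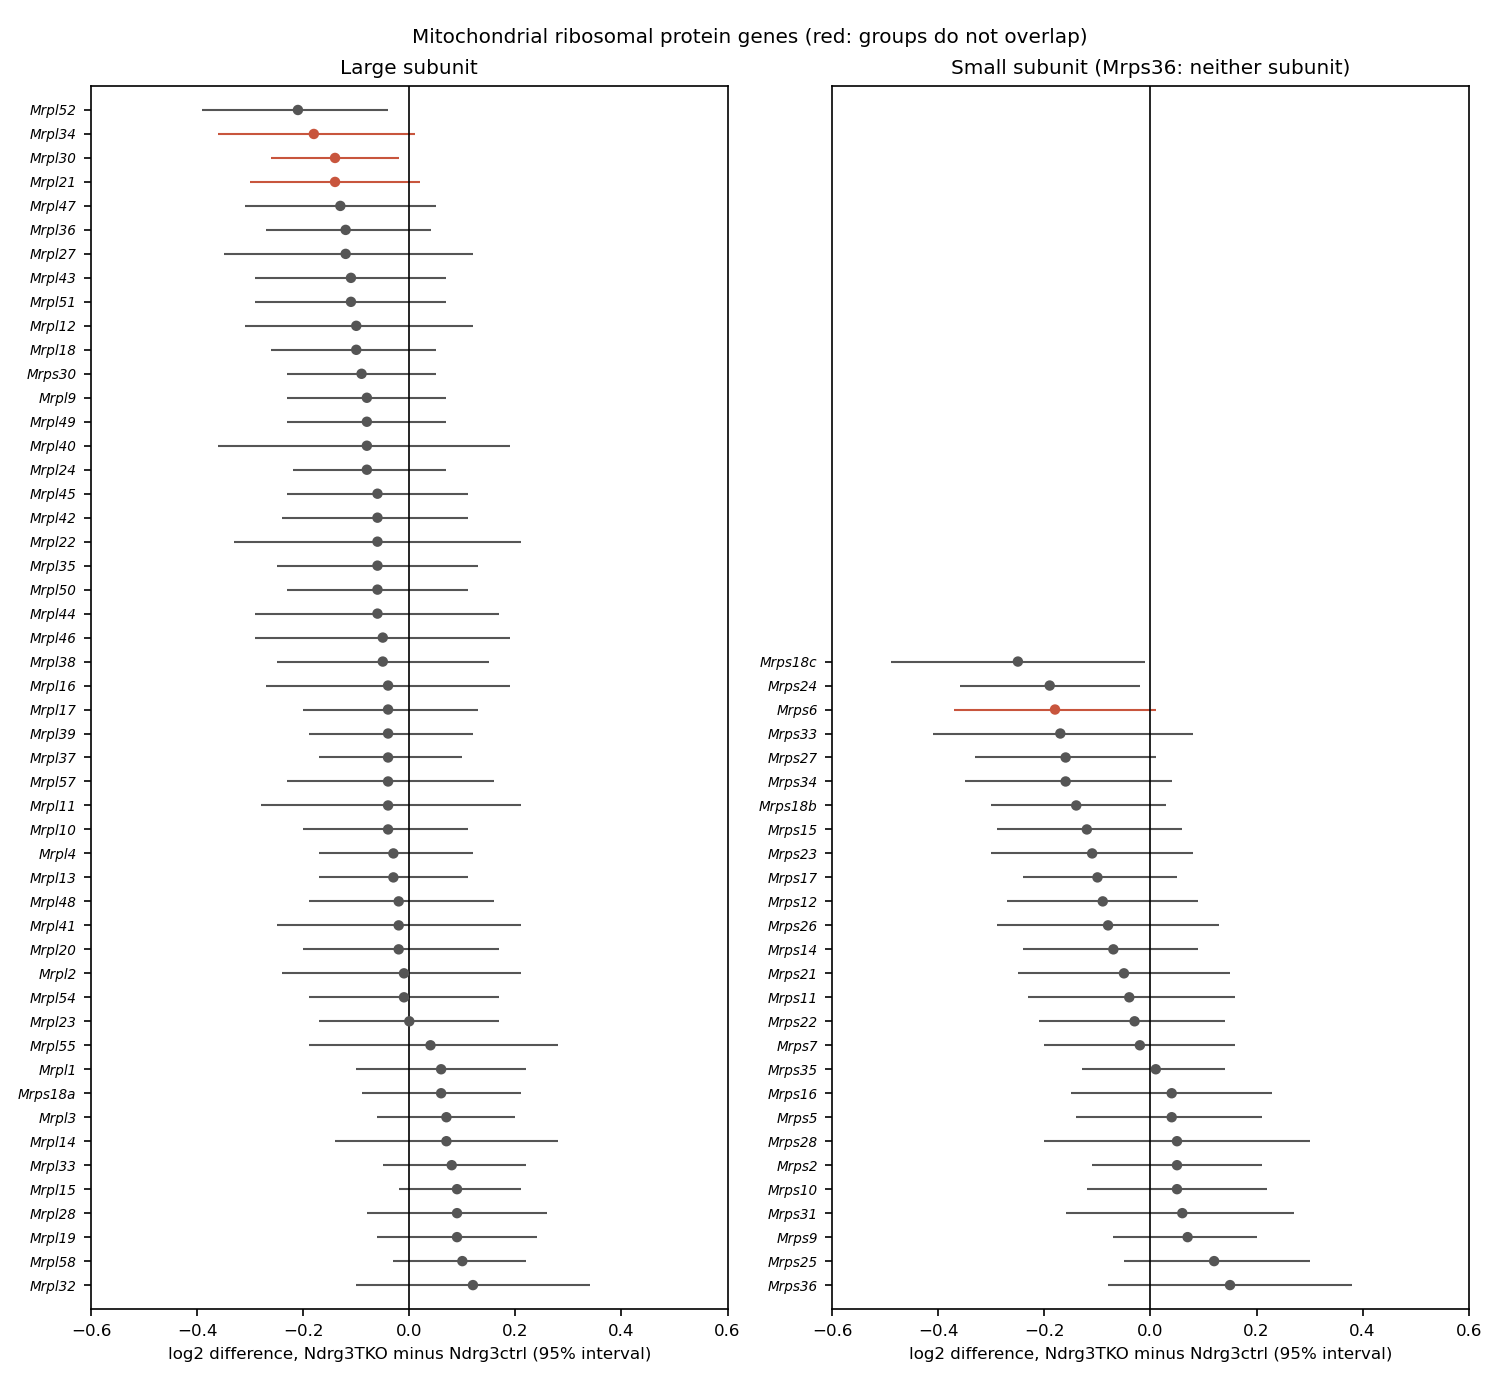
Log2 difference (Ndrg3TKO minus Ndrg3ctrl) of each tested gene with its 95% interval from edgeR, large subunit at the left and small subunit with Mrps36 at the right. Red marks the 4 genes whose groups did not overlap. All intervals lay between -0.49 and 0.38.

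Although no gene was called, 55 of the 77 log2 differences were below 0 (71.4%, compared with 51.2% of all tested genes). Their median was -0.0449, against -0.0033 over all tested genes. In the large subunit 38 of 50 differences were below 0 (median -0.0446) and in the small subunit 17 of 26 (median -0.0618). Among large-subunit proteins the value was below 0 for 20 of 31 with bacterial relatives and for 18 of 19 found only in mitochondria. Among small-subunit proteins the counts were 11 of 17 and 6 of 9. The S18 paralogs Mrps18a, Mrps18b and Mrps18c were counted with those that have bacterial relatives. These shares fell most when either of 2 libraries was left out. Without Ndrg3ctrl replicate 2, 41 of the 77 differences were below 0, and the medians were 0.01 for the large and -0.03 for the small subunit. Without Ndrg3TKO replicate 1, 43 were below 0, and the medians were 0.00 and -0.02. Leaving out any other library gave 53 to 57 below 0. The fit with a Y-linked term gave 59, and the fit with GC and length offsets gave 51 (medians -0.04 and -0.06). The genes are not independent of each other, so no test was made of these shares.

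The same 2 libraries stood out in the sums. The summed level of the 78 genes was 1855, 2024, 1907 and 1908 CPM in Ndrg3ctrl replicates 1 to 4 and 1750, 1943, 1930 and 1893 CPM in Ndrg3TKO replicates 1 to 4. The sums of the groups overlapped, with the highest value in Ndrg3ctrl replicate 2 and the lowest in Ndrg3TKO replicate 1. The means were 1923 ± 71.4 and 1879 ± 88.7 CPM (SD, n = 4 per group), a ratio of 0.977. For the large subunit they were 1316 ± 56.6 and 1287 ± 61.8 CPM, and for the small subunit 600.6 ± 14.8 and 584.1 ± 26.4 CPM. The ratio of the large-subunit to the small-subunit sum was 2.19 ± 0.0439 in Ndrg3ctrl and 2.20 ± 0.00861 in Ndrg3TKO.

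Gene by gene, 37 of the 77 members (48.1%) had their highest value in Ndrg3ctrl replicate 2, compared with 20.9% of all tested genes, and 45 (58.4%) had their lowest value in Ndrg3TKO replicate 1, compared with 15.5% of all tested genes. The median deviation of the members from their means over 8 libraries was 0.112 in Ndrg3ctrl replicate 2 and -0.141 in Ndrg3TKO replicate 1 on the log2(CPM + 0.5) scale, and between -0.0521 and 0.0466 in the other 6 libraries. Both subunits took part, at 0.12 and 0.0891 in the former and at -0.141 and -0.144 in the latter. Ndrg3ctrl replicate 2 is the smallest library and expresses the Y-linked genes. Across genes, its deviation from its group mean followed GC content with a Spearman's rho of 0.211, a description over 14633 genes of 1 library. Close to this in strength were Ndrg3TKO replicate 4 (rho -0.205) and Ndrg3TKO replicate 2 (rho 0.176). In those libraries the median deviations of the members were -0.00531 and 0.0466. Ndrg3TKO replicate 1 had a rho of -0.058 and no Y-linked expression. The part of depth, GC content or sex in these deviations was not tested.

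**Figure D3:**
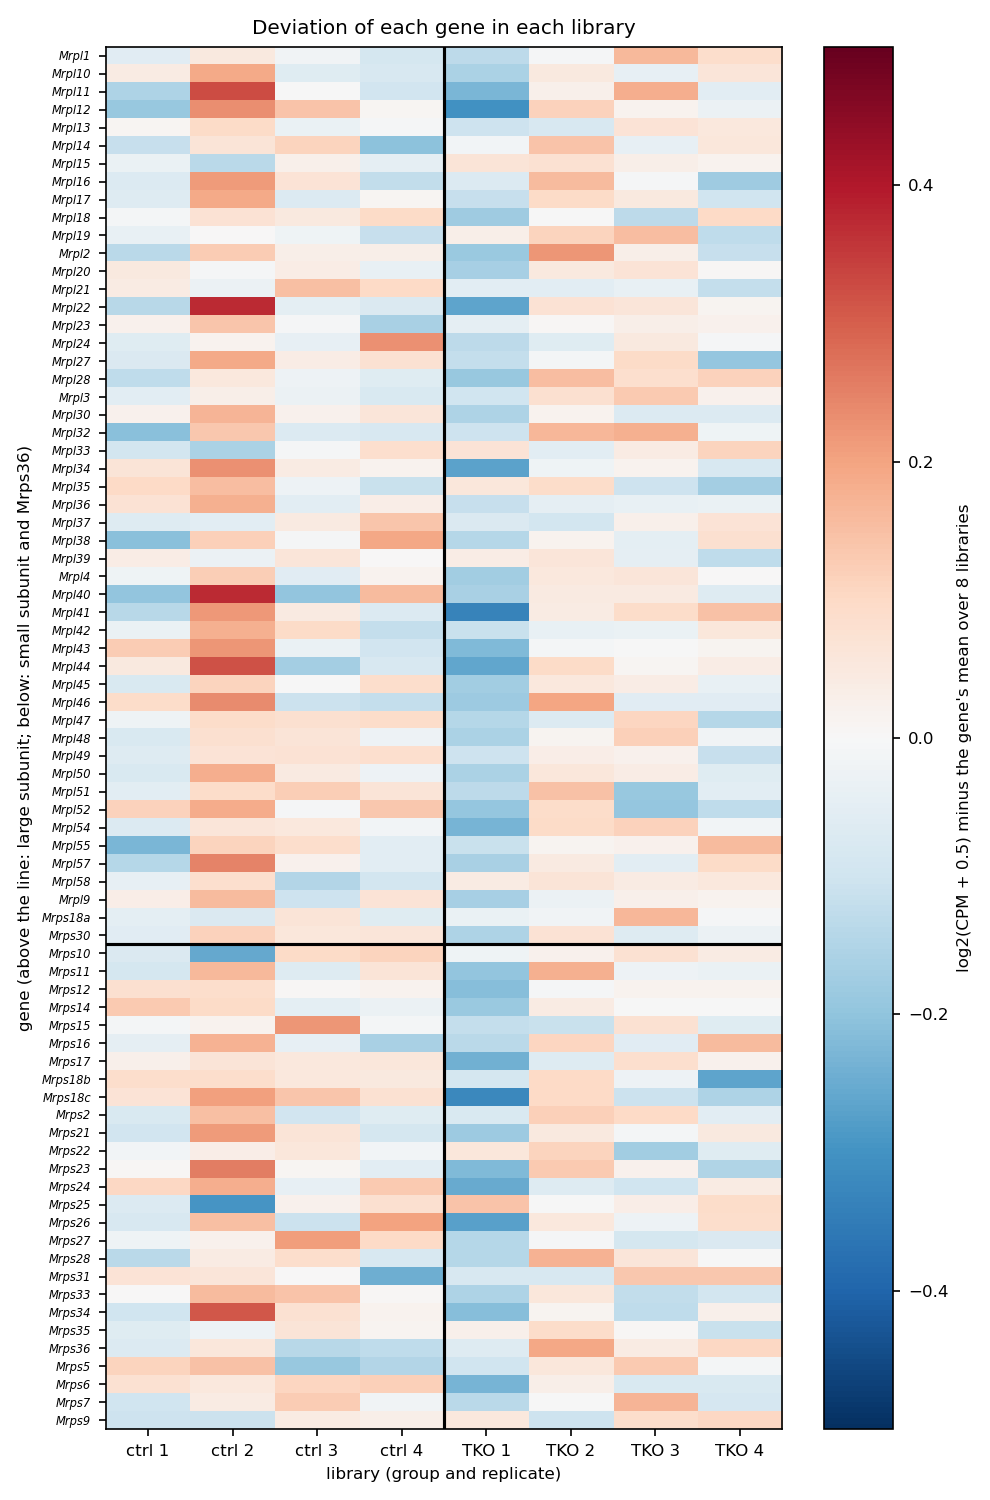
Deviation of each tested gene from its mean over the 8 libraries, as log2(CPM + 0.5), with Ndrg3ctrl at the left and Ndrg3TKO at the right of the vertical line and the large subunit above the horizontal line. The column of Ndrg3ctrl replicate 2 is mostly red (median 0.112) and that of Ndrg3TKO replicate 1 mostly blue (median -0.141).

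The spread between replicates was that of other genes of like level. The coefficient of variation had a median of 7.25% in Ndrg3ctrl and 7.62% in Ndrg3TKO over the members, and of 7.73% and 7.08% over the 6349 tested genes within the same range of mean CPM. The standard error of the log2 difference ranged from 0.0539 (Mrpl15) to 0.127 (Mrpl40), with a median of 0.0817.

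The groups did not overlap for 4 of the 77 genes, Mrps6, Mrpl34, Mrpl21 and Mrpl30, all with Ndrg3TKO lower (background 3.59% of tested genes), and for 0 with Ndrg3TKO higher (background 3.44%), so the share of members was near that of all genes. With fewer libraries complete separation comes more easily. Without Ndrg3ctrl replicate 3 the number was 10, of which 8 were lower in Ndrg3TKO (5.97% of all tested genes were then separated in that direction and 5.6% in the other). Without Ndrg3TKO replicate 2 it was also 10, of which 9 were lower (6.17% and 6.56%). Without Ndrg3TKO replicate 3 it was 7, all of them lower (5.17% and 4.64%), and without Ndrg3TKO replicate 4 it was 7, of which 5 were lower (4.99% and 5.15%).

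Mrps6 (chr16:92058270-92112227, plus strand, GRCm38) encodes bS6m, a small-subunit protein with a bacterial relative. It was measured at 12.4, 12.2, 12.7 and 12.8 CPM in Ndrg3ctrl and at 9.91, 12.0, 11.1 and 11.1 CPM in Ndrg3TKO. The highest Ndrg3TKO library lay just under the lowest control library, and the log2 difference was -0.18 ± 0.0878 (SE, adjusted p = 0.475). Its exons overlap those of Gm49711 (19.9%) and Slc5a3 (10.4%) on the same strand.

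Mrpl30 (uL30m, chr1:37890477-37898535, plus strand) belongs to the large subunit. Its values were 55.2, 61.2, 55.2 and 56.8 CPM in Ndrg3ctrl and 48.8, 55.1, 51.8 and 51.9 CPM in Ndrg3TKO. The nearest libraries of the groups lay side by side, and Ndrg3ctrl replicate 2 was again the highest and Ndrg3TKO replicate 1 the lowest. The log2 difference was -0.14 ± 0.0567 (SE, adjusted p = 0.388).

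Mrpl34 (bL34m, chr8:71464959-71465747, plus strand) was at 18.5, 20.8, 18.2 and 17.9 CPM in Ndrg3ctrl and at 14.6, 17.4, 17.9 and 16.7 CPM in Ndrg3TKO. The nearest libraries of the groups, both printed as 17.9, differed by less than the rounding (log2 difference -0.18 ± 0.0855 SE, adjusted p = 0.479). Mrpl21 (bL21m, chr19:3282901-3292837, plus strand) was at 16.4, 15.6, 17.7 and 17.1 CPM in Ndrg3ctrl and at 15.3, 15.3, 15.5 and 14.6 CPM in Ndrg3TKO. Here the log2 difference was -0.14 ± 0.0755 (SE, adjusted p = 0.55).

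The 5 lowest log2 differences were those of Mrps18c, Mrpl52, Mrps24, Mrps6 and Mrpl34. Mrps18c (chr5:100798627-100804471, plus strand) encodes bS18m, the mitochondrial form of a conserved small-subunit protein. It was measured at 8.62, 9.53, 9.07 and 8.67 CPM in Ndrg3ctrl and at 6.46, 8.82, 7.58 and 7.31 CPM in Ndrg3TKO. Ndrg3TKO replicate 2 lay within the control range and the other 3 below it. The log2 difference was -0.25 ± 0.112 (SE, 95% interval -0.49 to -0.01, adjusted p = 0.445).

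Mrpl52 (mL52, chr14:54426909-54429756, plus strand), a large-subunit protein found only in mitochondria, was at 23.3, 24.5, 21.4 and 23.6 CPM in Ndrg3ctrl and at 18.7, 22.9, 18.7 and 19.6 CPM in Ndrg3TKO. Its 0.331 was the lowest adjusted p of the 77 genes (log2 difference -0.21 ± 0.0817 SE). Again only Ndrg3TKO replicate 2 reached the control range. Mrps24 (uS3m, chr11:5703983-5715680, minus strand) was at 25.5, 26.9, 23.0 and 26.0 CPM in Ndrg3ctrl and at 19.8, 22.6, 22.1 and 24.4 CPM in Ndrg3TKO. Its groups overlapped through Ndrg3TKO replicate 4, and its log2 difference was -0.19 ± 0.0789 (SE, adjusted p = 0.398).

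**Figure D4:**
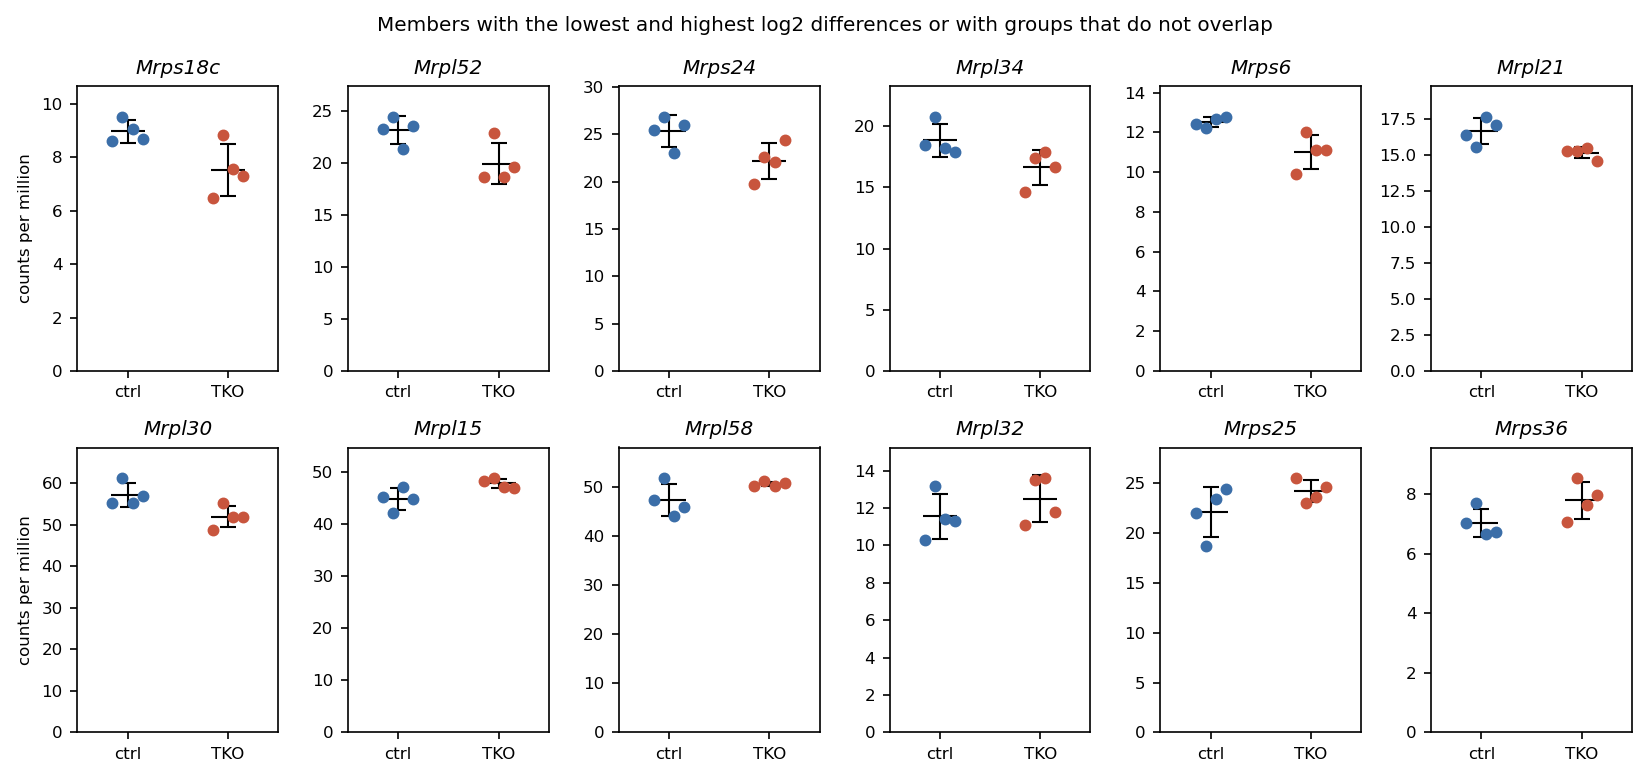
CPM per library, with each axis starting at 0, for the 12 genes with the lowest or highest log2 differences or with groups that did not overlap. Points are libraries, and bars give the mean and SD of 4. The differences between the group means are small beside the level of each gene.

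The 5 highest log2 differences were those of Mrps36, Mrps25, Mrpl32, Mrpl58 and Mrpl15, and none passed the test (adjusted p from 0.574 to 0.737). Mrps36, the gene whose product joins the 2-oxoglutarate dehydrogenase complex and not the ribosome, was at 7.04, 7.71, 6.67 and 6.73 CPM in Ndrg3ctrl and at 7.06, 8.54, 7.62 and 7.98 CPM in Ndrg3TKO. The groups overlapped, and its log2 difference of 0.15 ± 0.107 (SE) was the highest of the 77. Mrps25 (mS25) was at 22, 18.7, 23.4 and 24.4 CPM and at 25.5, 23.0, 23.6 and 24.6 CPM (log2 difference 0.12 ± 0.0828 SE), with the overlap with Nr2c2 given above. Mrpl32 (bL32m), whose maturation in mitochondria needs proteolytic cleavage, was at 10.3, 13.2, 11.4 and 11.3 CPM and at 11.1, 13.5, 13.6 and 11.8 CPM (0.12 ± 0.103 SE).

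Mrpl58 encodes mL62, a peptidyl-tRNA hydrolase that is built into the large subunit and can release stalled chains. It was at 47.5, 51.9, 44.2 and 45.9 CPM in Ndrg3ctrl and at 50.3, 51.2, 50.3 and 50.8 CPM in Ndrg3TKO. The Ndrg3TKO libraries all lay within the control range, with a log2 difference of 0.10 ± 0.0576 (SE, adjusted p = 0.58). Mrpl15 (uL15m) was at 45.3, 42.1, 47.1 and 44.9 CPM and at 48.4, 48.9, 47.2 and 46.9 CPM. Ndrg3TKO replicate 4 lay just inside the control range, and the log2 difference was 0.09 ± 0.0539 (SE, adjusted p = 0.574).

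The mammalian genome holds 3 paralogs of the bacterial S18 protein, whose products sit in different places. Mrps18c is described above. Mrps18b (mS40, small subunit) was at 26.0, 26.0, 25.4 and 25.3 CPM in Ndrg3ctrl and at 23.0, 26.2, 24.0 and 20.3 CPM in Ndrg3TKO. Mrps18a (mL66, large subunit) was at 26.1, 25.7, 28.3 and 25.9 CPM and at 26.4, 26.7, 30.4 and 26.9 CPM. The log2 differences were -0.25 ± 0.112 for Mrps18c, -0.14 ± 0.0782 for Mrps18b and 0.06 ± 0.0687 for Mrps18a (SE). The groups overlapped for all 3 genes, and the difference between the paralogs was not tested. Per kilobase, Mrps18a was at 30.6 CPM, Mrps18b at 22.7 and Mrps18c at 10.1. Of the exonic bases of Mrps18b, 30.5% overlap Gm16279 on the opposite strand.

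Mrpl12 and Mrpl10 encode the stalk of the large subunit, where translation factors bind. Mrpl12 (bL12m) also has a reported role in mitochondrial transcription. It was at 33.9, 45.5, 42.8 and 38.9 CPM in Ndrg3ctrl and at 31.3, 41.9, 39.2 and 37.9 CPM in Ndrg3TKO. Its spread within a group exceeded the difference of the means (log2 difference -0.10 ± 0.101 SE, adjusted p = 0.779). Mrpl10 (uL10m), its anchor, was at 52.5, 58.2, 48.8 and 48.2 CPM and at 45.6, 52.7, 49.5 and 53.2 CPM, and its log2 difference of -0.04 ± 0.0705 (SE, adjusted p = 0.868) became 0.01 without Ndrg3ctrl replicate 2.

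The other genes at the ends of the order by level per length were measured with these group means. Mrpl33, whose product is among the smallest of the ribosome, had means of 52.4 ± 3.86 CPM in Ndrg3ctrl and 55.6 ± 2.68 CPM in Ndrg3TKO (SD, n = 4). Mrpl24 had 69.7 ± 6.69 and 66.0 ± 3.53 CPM, with 26.3% of its exonic bases overlapping Rrnad1 on the opposite strand. Mrpl37 had 51.9 ± 3.5 and 50.7 ± 2.76 CPM, and Mrpl54 had 21.2 ± 0.884 and 21.1 ± 2.30 CPM. Mrpl48, at the low end, had 17.2 ± 0.932 and 17.0 ± 1.35 CPM. The remaining 56 members fell outside the rule on named genes and lay within the ranges given above.

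Some of the members start close to a neighbor, and the share of all protein-coding genes that do so was not computed. For 18 members another protein-coding gene begins within 1000 bases in the opposite direction, and for 17 of these the starts lie within 250 bases. Of the 18 partners, 17 were tested and 0 were called (edgeR), with log2 differences between -0.17 and 0.19. At an unadjusted p under 0.05 there were 3 of the 17, compared with 10.9% of all tested genes in either direction. The starts of Mrps18c and Helq, a DNA helicase, lie 29 bases apart, and Helq had means of 32.3 ± 3.69 CPM in Ndrg3ctrl and 29.5 ± 1.14 CPM in Ndrg3TKO (log2 difference -0.13 ± 0.0786 SE). Mrps27 (mS27) and Ptcd2, a gene of mitochondrial RNA maturation, start 81 bases apart. Ptcd2 was at 35.2, 37.5, 36.6 and 34.2 CPM in Ndrg3ctrl and at 30.2, 33.2, 32.5 and 31.8 CPM in Ndrg3TKO. These groups did not overlap (log2 difference -0.17 ± 0.0601 SE, adjusted p = 0.287), as was so for 3.59% of all tested genes with Ndrg3TKO lower. Mrps27 was at 16.8, 17.3, 19.8 and 18.3 CPM and at 15.4, 17, 16 and 16.2 CPM, with an overlap of the groups (log2 difference -0.16, adjusted p = 0.482). By contrast, Ppp1r10, a regulatory subunit of protein phosphatase 1 that starts 45 bases from Mrps18b, had the higher mean in Ndrg3TKO (log2 difference 0.17 ± 0.0649 SE, adjusted p = 0.324) where Mrps18b had the lower. Mrps27, Helq, Ptcd2 and Ppp1r10 were chosen after their values were seen.

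Other genes also share exonic bases with members, 33 in all having such an overlap. Another protein-coding gene overlaps 23 members, of which 19 are overlapped from the opposite strand only. For 6 members a single gene covers at least 30% of the exonic bases. Apart from Mrpl53, Mrps25 and Mrps18b these are Mrps34 (63.4% Mapk8ip3, opposite strand, and 37.0% Nme3, same strand), Mrpl19 (36.0% Gcfc2) and Mrpl43 (33.4% Twnk). Reads from such stretches cannot be given to 1 gene with certainty here, and the values of these genes are uncertain to that extent.

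The genes that work with the mitochondrial ribosome were compared in 7 companion lists of 98 genes, of which 95 were tested and 0 called (edgeR). At an unadjusted p under 0.05 there were 7 with the lower mean in Ndrg3TKO (background 5.51% of tested genes) and 2 with the higher mean (background 5.34%). The groups did not overlap for 4 of the 95 with Ndrg3TKO lower and for 0 with it higher (background 3.59% and 3.44%). The number of companion genes called depended on the setting. With a Y-linked term, 2 were called, mt-Nd5 (adjusted p = 0.0291) and Tufm (adjusted p = 0.0161), while 2.99% of all tested genes were called. DESeq2, the fit with no filter on low counts and the fit without Ndrg3ctrl replicate 1 each called 1, mt-Nd5 (adjusted p = 0.0191, 0.0402 and 0.0289). Over all tested genes these fits called 1.24%, 1.11% and 0.674%. The settings with the replicate number as a block called more, and their counts stand with the other settings in the closing section. The 5 ribosomal proteins outside the naming rule, among them Dap3, had a median log2 difference of -0.0609. The median was -0.0217 for 24 assembly and rRNA modification genes, -0.0203 for 14 translation factors, -0.0307 for 20 aminoacyl-tRNA synthetase genes, and -0.0189 for 19 tested genes of transcription and RNA maturation.

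The RNAs that these ribosomes translate and contain had lower medians, with 10 of the 11 tested mitochondrially encoded mRNAs below 0 (median -0.187). Of all tested genes 51.2% were below 0. These mRNAs are not independent of each other, so no test was made of this share. mt-Nd5, a complex I subunit, was at 297.7, 379.9, 396.6 and 323.5 CPM in Ndrg3ctrl and at 274.6, 278.9, 302.1 and 262.0 CPM in Ndrg3TKO. Only Ndrg3TKO replicate 3 reached the control range (log2 difference -0.32 ± 0.0835 SE, adjusted p = 0.108). mt-Nd4, another complex I subunit, had means of 173.4 ± 27.2 and 144.0 ± 11.5 CPM (log2 difference -0.27 ± 0.1 SE, adjusted p = 0.345). mt-Co1, the core subunit of cytochrome c oxidase, had means of 5170.4 ± 782.6 and 4406.2 ± 494.7 CPM (log2 difference -0.23 ± 0.114 SE, adjusted p = 0.49). The mitochondrial share of all counts ranged from 0.571% to 0.82%. mt-Co2 and mt-Co3, which belong to the same enzyme as mt-Co1, had control means of 3.96 and 5.96 CPM. For mt-Nd3 and mt-Atp6 these means were 2.04 and 1.28 CPM, with log2 standard errors of 0.227 and 0.266. mt-Co2, mt-Co3, mt-Nd3 and mt-Atp6 are among the 11 tested mRNAs, and whether such low counts follow transcript level was not tested. The genes mt-Nd4l and mt-Atp8 did not pass the filter. All of these low genes and Dap3 were named after their values were seen.

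The rRNAs of the mitochondrial ribosome, mt-Rnr1 and mt-Rnr2, varied more than any member. mt-Rnr1 was at 300.2, 86, 185.5 and 123.3 CPM in Ndrg3ctrl and at 209.6, 145.0, 140.4 and 112.0 CPM in Ndrg3TKO. mt-Rnr2 was at 400.9, 47.6, 184.3 and 140.3 CPM and at 216.5, 126.9, 149.5 and 121.2 CPM. The groups overlapped. The libraries were made with rRNA depletion, and its part in this spread was not tested. The log2 differences were -0.20 ± 0.424 and -0.34 ± 0.617 (SE), and without Ndrg3ctrl replicate 1 they became 0.20 and 0.30.

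Among the translation factors, Tufm, the elongation factor that brings aminoacyl-tRNA to the mitochondrial ribosome, was at 54.0, 64.0, 54.5 and 52.4 CPM in Ndrg3ctrl and at 45.5, 52.6, 53.2 and 46.5 CPM in Ndrg3TKO (log2 difference -0.18 ± 0.0738 SE, adjusted p = 0.374). Gfm2, which takes part in ribosome recycling, was at 57.3, 56.9, 60.8 and 58.0 CPM and at 68.1, 60.2, 69.8 and 65.0 CPM (log2 difference 0.17 ± 0.0562 SE, adjusted p = 0.219). Their differences pointed in opposite directions, and in each the groups overlapped through 1 or more libraries. Of 14 translation factors, groups did not overlap for 2 with Ndrg3TKO lower and for 0 with it higher (background 3.59% and 3.44%). The 2 were Mtif3 (log2 difference -0.21 ± 0.0805 SE, adjusted p = 0.35) and Tsfm (-0.1 ± 0.0696 SE, adjusted p = 0.666), named after their values were seen.

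**Figure D5:**
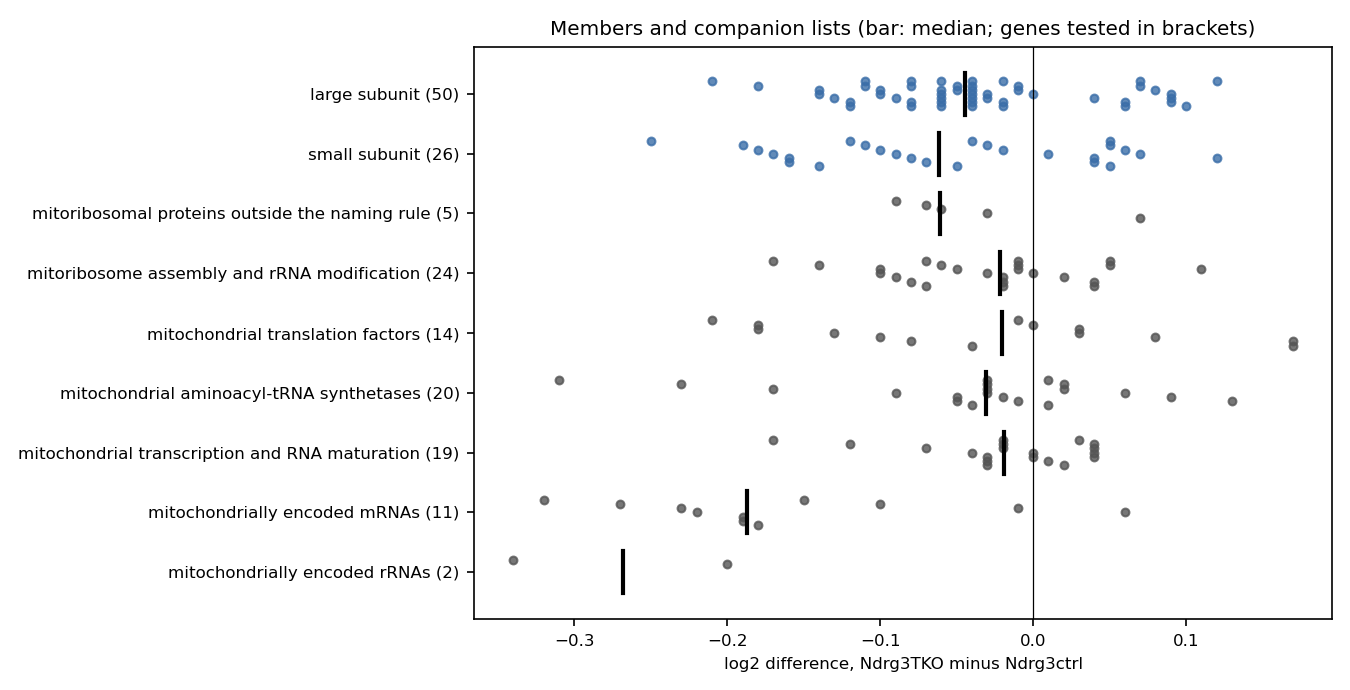
Log2 differences (Ndrg3TKO minus Ndrg3ctrl) of the tested genes of each subunit (blue) and of each companion list (grey), with the median as a bar. The mitochondrially encoded mRNAs (median -0.187) and rRNAs lie lowest, and the medians of the other lists lie between -0.0618 and -0.0189.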

How the data were processed

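RNA was taken from sorted CD8SP thymocytes of 4 Ndrg3ctrl and 4 Ndrg3TKO mice, 1 library per mouse, and groups and replicate numbers were read from the sample labels. Per the submitters' processing notes and the study's methods, the authors used cutadapt for trimming, STAR for alignment to GRCm38.p4 and featureCounts for counts per gene, and the deposited values are raw counts. The strand setting was not given in the sources used here. All 8 sample columns were used. Chi-square per degree of freedom between replicates of a group was 9.95 to 33.7 over genes, so each library was counted as a sample of its own.

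Ensembl identifiers were matched without version to GENCODE M21 (GRCm38), for 98.692% of genes. Counts were tested with edgeR 4.0.16 (R 4.3.3, limma 3.58.1): filterByExpr, TMM scaling, glmQLFit (robust) and glmQLFTest of Ndrg3TKO against Ndrg3ctrl over 14633 genes, with Benjamini-Hochberg adjustment and a threshold of 0.05. All adjusted p values in the text come from this edgeR fit unless another is named. Standard errors are the log2 difference divided by the square root of F. The fit was tested on simulated data. Total counts of 21126698 to 32668081 set the precision, and intervals cover the spread between these mice. CPM per length used the longest protein-coding transcript, and the summed exonic length was added as an alternative after seeing the data. Other settings were DESeq2 1.42.0, other scalings and filters, a replicate block, a Y-linked term, GC and length offsets, and leaving out each library.

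Members and companion lists (the symbol Prorp was not matched, leaving 97 of 98 genes) were chosen with earlier results of these data known. Genes named singly were those called without or with the block, those with groups that did not overlap, the 5 highest and 5 lowest log2 differences, the 5 highest and 3 lowest levels per length, Mrps18a, Mrps18b, Mrps18c, Mrpl10, Mrpl12, Mrpl58 and Mrps36, untested members, companion genes called without or with the block, the rRNAs and Ndrg3. Promoter sequences are from RefSeq (GRCm38.p6).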

Additional observations from a re-analysis of the deposited data

Results flagged for a closer look

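In groups of 4 libraries, 3 of 68 sets of values had 1 library far from the other 3 (Dixon's rule at the 95% level), against the 3.4 that chance gives at 1 in 20. Mrps18a was highest in replicate 3 of both groups, at 28.3 CPM in Ndrg3ctrl (others 25.7 to 26.1) and at 30.4 CPM in Ndrg3TKO (others 26.4 to 26.9). The mitochondrial share of counts was 0.636% in Ndrg3ctrl replicate 4, below the 0.803% to 0.82% of the other control libraries.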

How the results depend on the processing

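In every setting, 0 members were called at an adjusted p under 0.05, and the lowest adjusted p among members ranged from 0.0601 (replicate block) to 0.561 (without Ndrg3TKO replicate 1). The sample titles do not state that same-numbered mice were paired, and the rule used to accept a pairing was not met. Same-numbered libraries correlated over 0.1 in 3 of 4 pairs, and 6 of 8 libraries correlated best with their own number. A pairing was thus neither established nor excluded. With the replicate block, the genes called went from 168 to 800 of 14633, and 0 members were called. In that fit 9 of the 77 members had an unadjusted p under 0.05, and 55 differences were below 0. The companion genes called were 5 with the replicate block (Tufm, adjusted p = 0.0415, Gfm2, 0.031, mt-Nd4, 0.00156, mt-Nd5, 0.000627, and mt-Co1, 0.0154), 6 with the GC and length offsets and the block (Gfm2, mt-Nd2, mt-Nd4, mt-Nd5, mt-Nd6 and mt-Co1), 2 with the Y-linked term (Tufm and mt-Nd5), 1 (mt-Nd5) with DESeq2 or with no filter, and 0 to 1 when single libraries were left out. Of the head-to-head partners, the replicate block called 3 (Pnpla7, adjusted p = 0.0098, Ppp1r10, 0.0208, and Ncapd2, 0.0368), named after their values were seen. Genes called overall were 306 with DESeq2 (1.24% of genes tested), 437 with the Y-linked term (2.99%) and 274 with no filter (1.11%). They were 800 with the block (5.47%), 777 with offsets and block (5.31%), and 90 to 158 when single libraries were left out (0.607% to 1.07%). Members whose groups did not overlap numbered 4 to 10 when single libraries were left out, when 4.78% to 6.17% of all tested genes were separated with Ndrg3TKO lower and 4.5% to 6.56% with it higher. Over the settings, median log2 differences ranged from -0.08 to 0.01 for the large subunit and from -0.09 to -0.02 for the small subunit. All moved by less than 1 SD between libraries (0.08 large, 0.066 small). That SD exceeds the size of the main medians (-0.0446 and -0.0618), so this limit could not show their loss. With a Y-linked term the medians were -0.08 and -0.09, and mt-Rnr1 and mt-Rnr2 turned to 0.02 and 0.11. Leaving out libraries, Mrpl10 ranged from -0.08 to 0.01, mt-Rnr1 from -0.42 to 0.20 and mt-Rnr2 from -0.66 to 0.30. Of 432 values of 24 genes, 427 kept their direction. Most of these genes were chosen by their values in the same libraries, so this share does not measure the stability of the other members. Over all 77 tested members, the number below 0 ranged from 41 to 59 between settings. The causes were not tested.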

Other observations

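Lars2, the mitochondrial leucyl-tRNA synthetase of the companion lists, was noticed after its values were seen. It was at 298.3 CPM in Ndrg3ctrl replicate 1, 34.1 CPM in Ndrg3ctrl replicate 2 and 84.0 to 140.6 CPM in the other 6 libraries, and the same 2 libraries held the highest and the lowest value of mt-Rnr2 (400.9 and 47.6 CPM). Whether the Lars2 counts came from its own transcript alone was not tested.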
